A study of Rattus norvegicus with 10 samples.

Results

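Interferon-stimulated genes are the genes that a cell transcribes when an interferon has bound its receptor. A list of 37 such genes was followed in the whole mammary gland of ACI rats and of BN rats, and 36 of the 37 were measured, by 48 probe sets, among 14217 genes in all. The genes were chosen by symbol (current or former), by a list drawn up when earlier results of these data were known. A probe set counted if the array annotation gave it that symbol alone, and where a gene had several, as 10 did, the brightest by its mean over all 10 arrays stands for it. *Xaf1* matched no probe set and is not analysed here. The 5 ACI rats (ACI/SegHsd, labelled female) and the 5 BN rats (Brown Norway) had all received E2, the estrogen 17β-estradiol, from subcutaneous implants for 12 weeks, beginning when they were 9 weeks old. ACI rats are known for developing mammary cancer under E2 and BN rats for resisting it. Every difference below is therefore between strains under E2, since no untreated gland enters the comparison, and none is a response to E2 or to interferon. RNA of the gland of each rat was hybridized to 1 Affymetrix Rat Genome array, and levels are log2 expression values per probe set, so that a difference of 1 is a doubling.

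The arrays differed in ways that the strain labels do not cover. The arrays of each strain were deposited as a separate run, so that deposit and strain cannot be told apart, and the RNA isolation text given for BN samples speaks of ACI rats. In each strain 3 rats (rats 1 to 3) carry an animal ID that opens with S and 2 rats (rats 4 and 5) an ID that opens with H; the sources used here do not say what the letters stand for. BN rat 5 had the lowest BN value in 48.6% of the 9363 genes with a mean of at least 4, and the medians of the arrays lay between 3.35 and 3.53. Markers of luminal epithelium, the milk-forming cells, had a mean of 11.79 to 12.38 in ACI rats and 10.93 to 11.79 in BN rats, with 4 of 6 called higher in ACI. Each list of leukocyte markers had its median difference toward BN, though single markers went the other way. These lists are given beside the results below.

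Type I interferons bind a receptor made of the IFNAR1 and IFNAR2 chains, which activates the kinases JAK1 and TYK2. STAT2 is then phosphorylated and joins IRF9, and the complex they form part of binds the interferon-stimulated response element (ISRE) in front of its target genes. Interferon gamma acts through its own receptor and leads to binding at the gamma-activated site (GAS). The induced proteins sense viral RNA, block viral entry, transcription or translation, modify other proteins with the ubiquitin-like ISG15, and cut and load peptides for presentation on class I molecules. Many of these genes are also transcribed at a base level in uninfected epithelium and in leukocytes.

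The response elements can be read in front of many of the genes. Promoter sequences (RefSeq, build GRCr8, 250 bases before to 50 after the start site) were found for 27 of the 36 genes. Those of *Ddx58*, *Dhx58*, *Adar*, *Ifit1*, *Ifit2*, *Mx2*, *Ifitm1*, *Isg15* and *Usp18* are named only. The core letters of the ISRE, GAAA, any 2 bases and GAAA again (on the opposite strand TTTC, any 2 bases and TTTC), lay in 18 of the 27 promoters (66.7%) and in 3.92% of all 33469 promoters of the same length. The letters of the GAS, TTCNNNGAA, which read the same on both strands, lay in 8 of the 27 (29.6%) and in 8.87% of all. Matches of both motifs shared bases in *Bst2* alone of the 27 promoters. The stretches below carry the match nearest to the start site in the members that this comparison turns on: those that differed between the strains, *Oas1a* and *Bst2* with larger runs of the motif, the class I genes *Tap2* and *B2m*. They are written 5′ to 3′ along the gene, with ISRE or GAS letters in capitals.
Isg20 (ISRE, chr1:142239952-142239991, + strand): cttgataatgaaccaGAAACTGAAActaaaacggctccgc
Ifi27 (ISRE, chr6:128355213-128355252, + strand): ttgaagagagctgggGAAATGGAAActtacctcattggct
Tap1 (ISRE, chr20:4668640-4668679, - strand): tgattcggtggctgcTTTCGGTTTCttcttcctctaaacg
Gbp2 (ISRE, chr2:234005681-234005720, + strand): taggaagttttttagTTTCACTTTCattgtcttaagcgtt
Psmb8 (ISRE, chr20:4657026-4657050, - strand): tcttggtgctgtggcTTTCGCTTTC
Irf8 (GAS, chr19:65699089-65699146, + strand): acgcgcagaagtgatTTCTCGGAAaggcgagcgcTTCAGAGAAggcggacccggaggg
Irf9 (GAS, chr15:33065722-33065760, + strand): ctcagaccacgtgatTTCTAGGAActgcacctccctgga
Oas1a (ISRE, chr12:41330410-41330455, + strand): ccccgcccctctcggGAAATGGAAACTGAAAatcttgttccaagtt
Bst2 (GAS and ISRE, chr16:18255068-18255119, - strand): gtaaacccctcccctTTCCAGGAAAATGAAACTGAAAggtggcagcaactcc
Tap2 (ISRE, chr20:4652313-4652352, - strand): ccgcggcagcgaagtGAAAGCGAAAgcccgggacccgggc
B2m (ISRE, chr3:129549165-129549204, + strand): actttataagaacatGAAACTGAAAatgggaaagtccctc
The same ISRE core of *Isg20*, GAAACTGAAA, stands in *B2m*, whose level did not pass the test of a strain difference, as given below, and it closes the runs of *Oas1a* and *Bst2*. ISRE letters lay in 3 of 3 promoters of members called higher in ACI, in 2 of 4 called higher in BN and in 13 of 20 not called. GAS letters lay in 0 of 3, 3 of 4 and 5 of 20. No ISRE or GAS letters lay in this window of *Mx1*. The assembly is that of a BN rat, so these letters are not read from an ACI genome, and a match is a description and not a shown site.

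The interferon-stimulated genes did not differ between the strains in 1 shared direction. With limma and adjustment over all 31042 probe sets, 4 of the 36 genes were called higher in ACI (*Mx2*, *Isg20*, *Ifi27* and *Tap1*), 6 were called higher in BN (*Irf8*, *Irf9*, *Ifitm1*, *Gbp2*, *Usp18* and *Psmb8*) and 26 did not pass the test at an adjusted p of 0.05. The called share of the members, 27.8%, stood beside 17.4% of all 14217 genes. By direction, 11.1% of the members were called toward ACI (all genes 8.29%) and 16.7% toward BN (all genes 9.12%). A mean of at least 4 was reached by 33 of the 36 members, *Mx2* through its ACI rats alone, and of these 33 the same 10 were called (30.3%, beside 24.7% of the 9363 genes at that level), with 12.1% toward ACI (genes at that level 11.9%) and 18.2% toward BN (12.8%). The median log2 difference, ACI minus BN, was -0.03 over the members and 0.0 over all genes, and the median size of the difference was 0.41 over the members with a mean of at least 4 and also 0.41 over all such genes. Of the 26 members not called, 14 had a positive and 12 a negative difference. In bulk tissue, fewer cells of a type and less RNA per cell cannot be told apart.

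The mean over the 36 members was 7.53, 7.48, 7.67, 7.77 and 7.69 in ACI rats 1 to 5 and 7.83, 7.54, 7.33, 7.68 and 7.50 in BN rats 1 to 5. The strains thus overlapped over most of their range, at 7.63 ± 0.118 in ACI and 7.58 ± 0.188 in BN (SD, n = 5), and the highest and the lowest mean were both those of a BN rat. Without the 10 called members the means were 7.37 ± 0.129 and 7.32 ± 0.181. The members left were picked by the test of a strain difference on these same values. Their close means follow in part from that choice and are a description only.

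**Figure D1:**
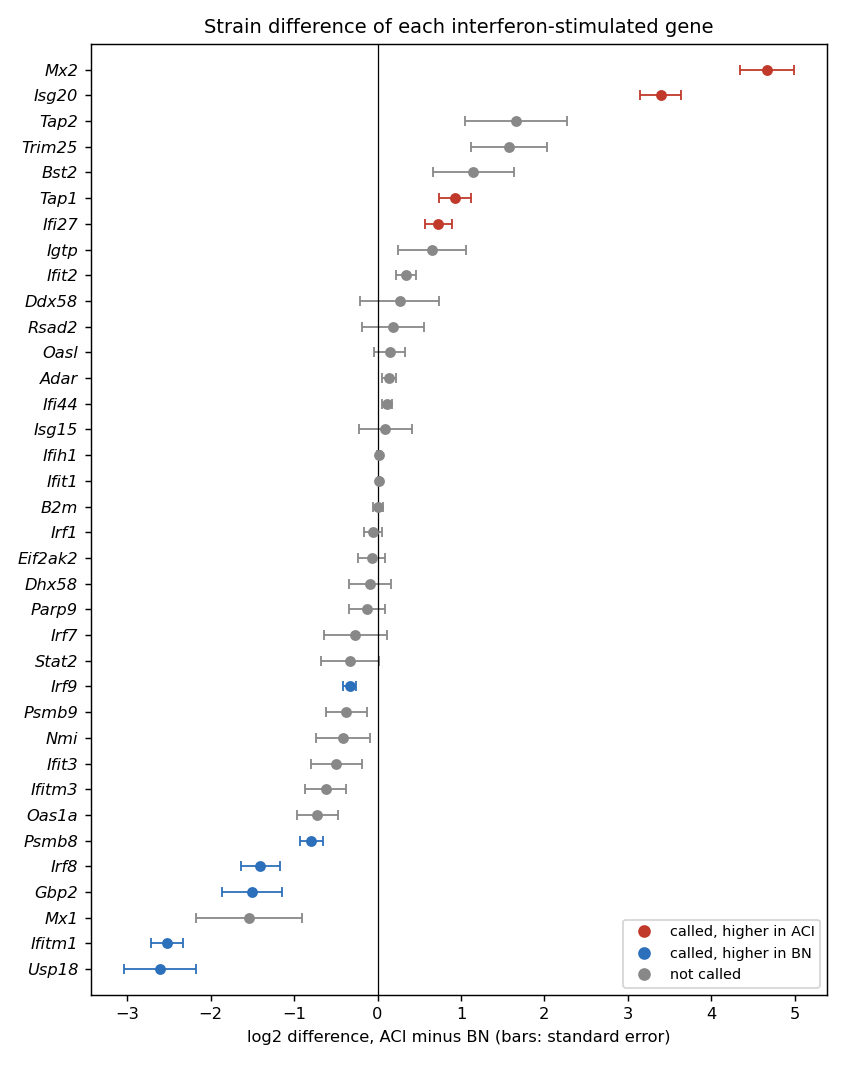
Log2 difference between the strains, ACI minus BN (x axis), of each of the 36 interferon-stimulated genes (y axis), with bars of 1 standard error from limma. The differences run from -2.60 (*Usp18*) to 4.67 (*Mx2*), with 4 genes called higher in ACI (red), 6 called higher in BN (blue) and 26 not called (grey).

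Of 6 genes of signalling and transcription, 2 were called higher in BN, *Irf8* and *Irf9*, and 4 did not pass the test. The differences of the 6 ran from -1.41 to -0.06. *Irf8*, a transcription factor of the myeloid and B lineages that also answers interferon gamma, was at 7.75, 7.57, 7.59, 7.68 and 7.72 in ACI rats 1 to 5 and at 9.82, 9.00, 8.32, 9.03 and 9.17 in BN rats 1 to 5. ACI rats lay close to each other, and every BN rat lay above them, BN rat 3 by the least. The log2 difference was -1.41 (SE 0.236, adjusted p = 0.00582), a level 2.65-fold higher in BN.

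*Irf9* encodes the DNA-binding subunit of the complex with STAT2. It was at 7.87, 8.06, 8.06, 7.83 and 7.81 in ACI rats and at 8.37, 8.06, 8.21, 8.28 and 8.38 in BN rats. Only BN rat 2 was level with the highest ACI rats. The difference was small and called at -0.33 (SE 0.0790, adjusted p = 0.0272), but the call was lost without ACI rat 1 (adjusted p = 0.0663), ACI rat 4 (0.0726), ACI rat 5 (0.0610), BN rat 1 (0.0685) or BN rat 4 (0.0580). A second probe set of *Irf9* had a difference of -0.42 (adjusted p = 0.00877), and there the strains did not overlap.

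*Stat2*, the partner of IRF9, was at 6.80, 6.73, 5.79, 6.75 and 6.76 in ACI rats and at 7.13, 7.40, 7.13, 7.12 and 5.72 in BN rats. In each strain 1 rat stood about 1 unit below the others, ACI rat 3 and BN rat 5. The difference of -0.33 (SE 0.348) did not pass the test (adjusted p = 0.614).

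*Irf7*, which amplifies the production of type I interferon, was at 7.21, 7.60, 7.65, 7.47 and 7.18 in ACI rats and at 8.50, 7.77, 6.31, 8.08 and 7.77 in BN rats. BN rat 3 was below every ACI rat, and the other BN rats were above them all. The difference was -0.26, with a 95% confidence interval of -1.12 to 0.59 (adjusted p = 0.742). *Irf1*, the factor behind much of the response to interferon gamma, had -0.06 (interval -0.31 to 0.19), and *Nmi*, a partner of STAT proteins, had -0.41 (interval -1.15 to 0.33).

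Of 6 cytosolic RNA sensors and their regulators, 0 were called, 4 of them with a difference within 0.14 of 0. *Ifih1*, the gene of the sensor MDA5, was near background (all rats of a strain under 4) in both strains, at 2.39 or below. *Ddx58*, which encodes the sensor RIG-I, had a difference of 0.26 with the wide interval of -0.81 to 1.34. *Dhx58*, a regulator of both sensors, read 5.38 in every ACI rat and between 4.82 and 6.29 in BN rats. *Eif2ak2*, the kinase PKR that stops translation, differed by -0.07 (interval -0.45 to 0.31). *Adar*, which edits double-stranded RNA, differed by 0.14 on its representative probe set (adjusted p = 0.406). On its other probe sets it differed by -0.59 (adjusted p = 0.0559), where the strains did not overlap, and by -0.36.

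*Trim25*, the ubiquitin ligase that activates RIG-I, stood out among these 6. It was at 8.34, 7.55, 7.76, 8.09 and 8.82 in ACI rats and at 6.66, 6.63, 7.96, 5.80 and 5.62 in BN rats. All BN rats but rat 3 were below every ACI rat. The difference of 1.58 (SE 0.459) missed the threshold (adjusted p = 0.0599). It passed in 1 of the 10 fits without 1 rat, the fit without BN rat 3, at 1.93 (adjusted p = 0.00978). In the other such fits the adjusted p was up to 0.123. With every rat kept, it passed when probe sets averaging under 4 were left out (adjusted p = 0.0136). It also passed after quantile normalization (0.0400) and after centring of the arrays (0.0170). It did not pass with the ID series (0.0678) or the replicate number (0.209) as a block. Nor did it pass with a floor at 4 (0.0694) or with trended and robust variance (0.0706).

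The antiviral effectors held large differences in both directions. Of 14 genes, 2 were called higher in ACI and 2 in BN, and the median difference was 0.08. *Mx2* and *Mx1*, neighbours on chromosome 11 with 1 gene between them, encode dynamin-like GTPases that trap viral components. *Mx2* was at 7.06, 7.31, 8.28, 8.32 and 8.67 in ACI rats and at 3.21, 3.42, 2.83, 3.43 and 3.42 in BN rats. All BN rats were near background and all ACI rats were well above it. The log2 difference was 4.67 (SE 0.326, adjusted p = 9.4e-05), and the ACI level was at least 15.2-fold higher than the near-background limit of 4. *Mx2* was the only member with such a pattern, which 1.41% of all genes had (200 genes).

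A second probe set of *Mx2* did not show this pattern. It read 3.41, 4.61, 5.73, 5.37 and 5.67 in ACI rats and 6.41, 5.58, 4.06, 6.16 and 6.36 in BN rats. The strains overlapped, with a difference of -0.76 (SE 0.603, adjusted p = 0.554), so that the statement on *Mx2* holds for 1 of its 2 probe sets, and the mean of both gave 1.96. Whether a probe set of 1 *Mx* gene also binds the transcript of the other was not tested.

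*Mx1* had the opposite direction to the representative probe set of *Mx2*. It was at 5.82, 5.81, 6.55, 6.43 and 6.81 in ACI rats and at 9.08, 8.04, 5.46, 8.27 and 8.27 in BN rats. The BN rats other than rat 3 were above every ACI rat, and BN rat 3 was below them all. The difference of -1.54 (SE 0.633) did not pass the test (adjusted p = 0.172). It passed in 1 of the 10 fits without 1 rat, the fit without BN rat 3, at -2.13 (adjusted p = 0.00347). In the other such fits the adjusted p was up to 0.327. In BN rat 3 the second *Mx2* probe set was also the lowest of its strain.

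**Figure D2:**
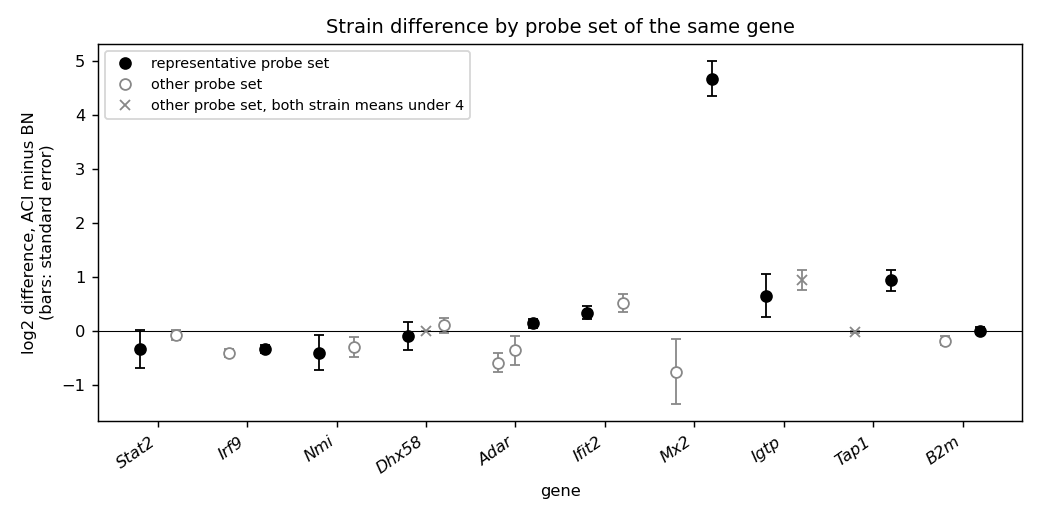
Log2 difference between the strains, ACI minus BN (y axis, bars 1 standard error from limma), for every probe set of the 10 interferon-stimulated genes with several (x axis). Filled points mark the representative probe set, open points and crosses the others. The probe sets of *Mx2* stand at 4.67 and -0.76, and those of *Adar* at 0.14, -0.36 and -0.59.

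*Isg20*, which encodes an exonuclease that degrades viral RNA, was at 7.90, 8.41, 8.08, 8.73 and 8.80 in ACI rats and at 5.36, 4.87, 4.82, 5.42 and 4.48 in BN rats. The strains were far apart, with every rat above 4. The difference was 3.39 (SE 0.243, adjusted p = 0.000108), a level 10.5-fold higher in ACI on the only probe set of this gene.

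*Ifitm1* encodes a membrane protein that blocks the fusion of viruses with the cell. It was at 9.79, 9.64, 9.78, 9.42 and 9.11 in ACI rats and at 12.38, 12.13, 12.38, 11.72 and 11.72 in BN rats. The difference of -2.52 (SE 0.191, adjusted p = 0.000135) made it 5.73-fold higher in BN on its only probe set, with no overlap. *Ifitm3*, its neighbour and a protein of the same function in endosomes, was at 12.86, 12.47, 12.59, 12.59 and 12.01 in ACI rats and at 13.20, 13.33, 13.76, 12.71 and 12.62 in BN rats. Here the strains overlapped, and -0.62 (SE 0.245) did not pass (adjusted p = 0.157). These genes are close relatives, and how far their probe sets share targets was not tested.

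*Gbp2*, a guanylate-binding protein induced mainly by interferon gamma, was at 7.50, 7.25, 7.37, 7.37 and 7.37 in ACI rats and at 9.82, 9.42, 8.97, 8.45 and 7.74 in BN rats. The ACI rats lay within 0.25 of each other, and BN rats were spread over more than 2 units, all above them. The difference was -1.51 (SE 0.358, adjusted p = 0.0277). Its call was lost in 7 of the 10 fits without 1 rat, those that left out an ACI rat, BN rat 2 or BN rat 3, with adjusted p values from 0.0567 to 0.0688.

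*Oas1a* encodes an oligoadenylate synthetase, which activates RNase L when it meets double-stranded RNA. It was at 5.10, 5.72, 5.91, 5.74 and 5.72 in ACI rats and at 6.15, 6.02, 5.96, 7.08 and 6.60 in BN rats. Every BN rat was above every ACI rat, by 0.05 at the nearest, but the difference of -0.72 (SE 0.247) was not called (adjusted p = 0.102). In all, the strains did not overlap in 9 members (25.0%), 3 with ACI above (all genes 8.3%) and 6 with BN above (all genes 8.32%), beside 16.6% of all genes in either direction. Among members with a mean of at least 4 the share was 27.3%, beside 23.2% of all genes at that level.

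*Bst2*, the gene of tetherin, which holds budding viruses at the cell surface, was at 8.84, 9.24, 8.58, 9.14 and 8.49 in ACI rats and at 7.04, 6.62, 7.26, 8.45 and 9.17 in BN rats. BN rats 1 to 4 were below every ACI rat, rat 4 by little, and BN rat 5 was within their range. The difference was 1.15 (SE 0.486, adjusted p = 0.184) over all rats. It passed in 1 of the 10 fits without 1 rat, the fit without BN rat 5, at 1.52 (adjusted p = 0.0343). In the other such fits the adjusted p was up to 0.343. By ID series the difference was 1.91 (adjusted p = 0.0170) among the rats with S and 0.005 among those with H. The difference between these series had an adjusted p of 0.0996, the lowest of the 36 members, and it did not pass.

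*Rsad2*, which encodes viperin, ran over the same range in both strains, at 5.89, 6.54, 7.18, 6.94 and 7.37 in ACI rats and at 6.75, 6.24, 6.02, 6.42 and 7.57 in BN rats (difference 0.18, interval -0.66 to 1.03). *Ifit1*, which binds foreign RNA caps, was near background in both strains. Its relatives *Ifit2* and *Ifit3* had differences of 0.34 (adjusted p = 0.121) and -0.49 (adjusted p = 0.401). *Oasl*, a relative of the oligoadenylate synthetases, differed by 0.15 (interval -0.28 to 0.57). *Igtp*, a GTPase that acts on vacuoles of intracellular parasites, differed by 0.65 (interval -0.27 to 1.58), with BN rat 5 at 6.07 and all other rats at 7.29 or above. A second probe set of *Igtp*, under 4 in all rats, had a difference of 0.94 (adjusted p = 0.0137), and there the strains did not overlap.

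*Isg15* and *Usp18* encode the ubiquitin-like modifier and the protease that removes it; USP18 also blocks signalling at the IFNAR2 chain. *Isg15* was at 6.12, 6.27, 6.69, 6.72 and 6.78 in ACI rats and at 7.02, 6.49, 5.34, 6.37 and 6.90 in BN rats. The strains overlapped, and the difference was 0.09 with an interval of -0.63 to 0.82. *Usp18* was at 3.99, 4.35, 5.66, 4.76 and 4.87 in ACI rats and at 7.99, 7.09, 6.10, 7.71 and 7.76 in BN rats. All BN rats were above all ACI rats, and the nearest were BN rat 3 and ACI rat 3. The difference was -2.60 (SE 0.431, adjusted p = 0.00551), a level 6.08-fold higher in BN and the largest toward BN among the members. With the replicate number as a block the same difference had an adjusted p of 0.0808. *Parp9*, which modifies ubiquitin and histones, differed by -0.13 (interval -0.61 to 0.36).

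*Ifi27*, a small mitochondrial and nuclear membrane protein, was at 12.73, 12.73, 12.82, 12.70 and 12.04 in ACI rats and at 11.76, 11.64, 12.10, 11.90 and 11.97 in BN rats. ACI rats 1 to 4 were above all BN rats, and ACI rat 5 was just below BN rat 3. The difference was 0.73 (SE 0.159, adjusted p = 0.0197), and the call was lost when ACI rat 1, 2, 3 or 4 or BN rat 1 or 2 was left out, with adjusted p values from 0.0505 to 0.0548. *Ifi44*, a cytoplasmic protein, differed by 0.11 (interval -0.02 to 0.25).

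**Figure D3:**
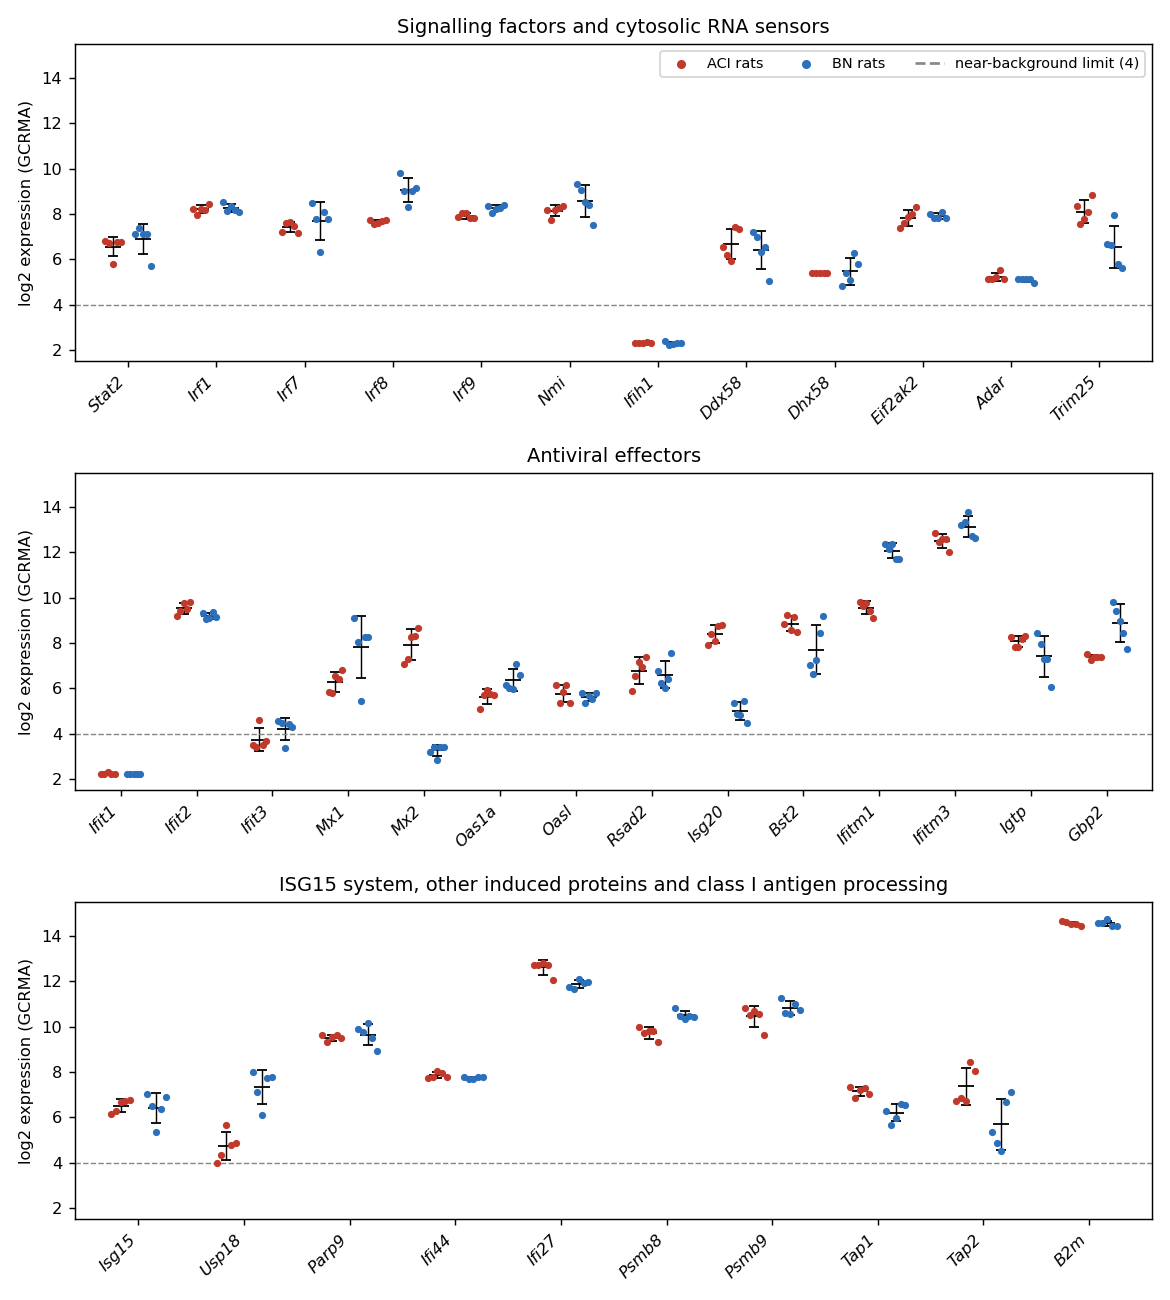
Log2 expression (y axis) of each of the 36 interferon-stimulated genes (x axis) in the 5 ACI rats (red points) and the 5 BN rats (blue points), by representative probe set, with bars for mean ± SD and a dashed line at the near-background limit of 4. *Mx2* is the one gene with all BN rats under the line and all ACI rats above it, *Ifih1* and *Ifit1* lie under it in both strains, and in *Mx1* BN rat 3 (5.46) lies apart from the other BN rats.

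The class I antigen processing genes *Tap2*, *Psmb8*, *Tap1* and *Psmb9* follow each other on chromosome 20, and they did not differ in 1 direction. *Tap1* and *Tap2* encode the chains of the transporter that carries peptides into the endoplasmic reticulum, and *Psmb8* and *Psmb9* encode subunits of the immunoproteasome that cuts them. *Tap1* was at 7.34, 6.84, 7.21, 7.27 and 7.03 in ACI rats and at 6.27, 5.67, 5.97, 6.60 and 6.52 in BN rats. It did not overlap and was called higher in ACI (0.93, SE 0.191, adjusted p = 0.0148). *Psmb8* was at 9.99, 9.70, 9.80, 9.78 and 9.30 in ACI rats and at 10.82, 10.47, 10.34, 10.47 and 10.44 in BN rats. It did not overlap either and was called higher in BN (-0.79, SE 0.137, adjusted p = 0.00660).

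*Tap2* was at 6.73, 6.86, 6.70, 8.45 and 8.04 in ACI rats and at 5.33, 4.87, 4.53, 6.66 and 7.09 in BN rats. In both strains rats 4 and 5, with H in their ID, were above rats 1 to 3, and within each series ACI rats were above BN rats. The difference was 1.66 (SE 0.608) and was not called (adjusted p = 0.126), but with the ID series as a block it had an adjusted p of 0.00170, and with the replicate number as a block 0.0264. Within the series it was 1.85 (S, adjusted p = 0.0139) and 1.37 (H, adjusted p = 0.272). *Psmb9* differed by -0.37 (interval -0.93 to 0.18). *B2m*, the light chain of all class I molecules, was at 14.55 ± 0.0797 in ACI and 14.55 ± 0.116 in BN rats (SD, n = 5), with an interval of the difference of -0.14 to 0.14.

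The 10 called members had the same direction within each series of animal IDs. For all of them but *Irf9* and *Ifi27* the strains did not overlap. Any subset of the rats then gives the same direction, so this is a description and no support for the calls. Among the rats with S in their ID and among those with H, *Mx2* had differences of 4.40 and 5.07, *Isg20* of 3.11 and 3.81, *Tap1* of 1.16 and 0.59, and *Ifi27* of 0.93 and 0.43. Toward BN, *Ifitm1* had -2.56 and -2.46, *Usp18* -2.39 and -2.92, *Irf8* -1.41 and -1.40, *Psmb8* -0.71 and -0.92, *Gbp2* -2.03 and -0.72, and *Irf9* -0.22 and -0.51. Series S holds 3 rats a strain and series H 2. *Irf8* (adjusted p = 0.110), *Usp18* (0.111), *Psmb8* (0.0551) and *Irf9* (0.297) were not called within S, and *Usp18* (adjusted p = 0.0409) was the only member called within H.

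Within a strain, the rat at the end of the range was counted over these genes. Among the 33 members with a mean of at least 4, BN rat 3 had the lowest BN value in 11 (33.3%, beside 16.9% of all such genes), namely *Irf7*, *Irf8*, *Mx1*, *Mx2*, *Oas1a*, *Rsad2*, *Isg15*, *Usp18*, *Psmb8*, *Psmb9* and *Tap2*. Without *Mx2*, whose BN values are all near background, it was 10 of 32 (31.2%). BN rat 1 had the highest BN value in 12 (36.4%, all genes 22.5%) and the lowest in 1, and BN rat 3 had the highest in 5 (15.2%, all genes 24.4%). The genes with BN rat 1 at the top included *Irf7*, *Irf8*, *Mx1*, *Isg15*, *Usp18* and *Gbp2*. BN rat 5, low in 48.6% of all genes, was lowest in 11 members (33.3%). In ACI rats, rat 1 was lowest in 9 (27.3%, all genes 18.0%), namely *Eif2ak2*, *Ifit2*, *Mx2*, *Oas1a*, *Rsad2*, *Isg20*, *Isg15*, *Usp18* and *Ifi44*, and it was highest in 9 others (27.3%, all genes 29.3%), such as *Irf8*, *Ifitm1*, *Gbp2*, *Psmb8* and *Tap1*. ACI rat 5 was highest in 11 (33.3%, all genes 26.9%), among them *Mx1*, *Mx2*, *Rsad2*, *Isg20* and *Isg15*, and lowest in 10 (30.3%, all genes 29.0%), among them *Irf9*, *Bst2*, *Ifitm1*, *Ifi27* and *Psmb8*. Each of these rats was thus at both ends of the ACI range, in different genes. These are counts of genes that share a rat and are no test.

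The SD between rats was larger in BN than in ACI for 24 of the 33 members (72.7%), and for 74.3% of all genes of that level. The median SD over the members was 0.300 in ACI and 0.472 in BN rats, and over all such genes 0.239 and 0.381.

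**Figure D4:**
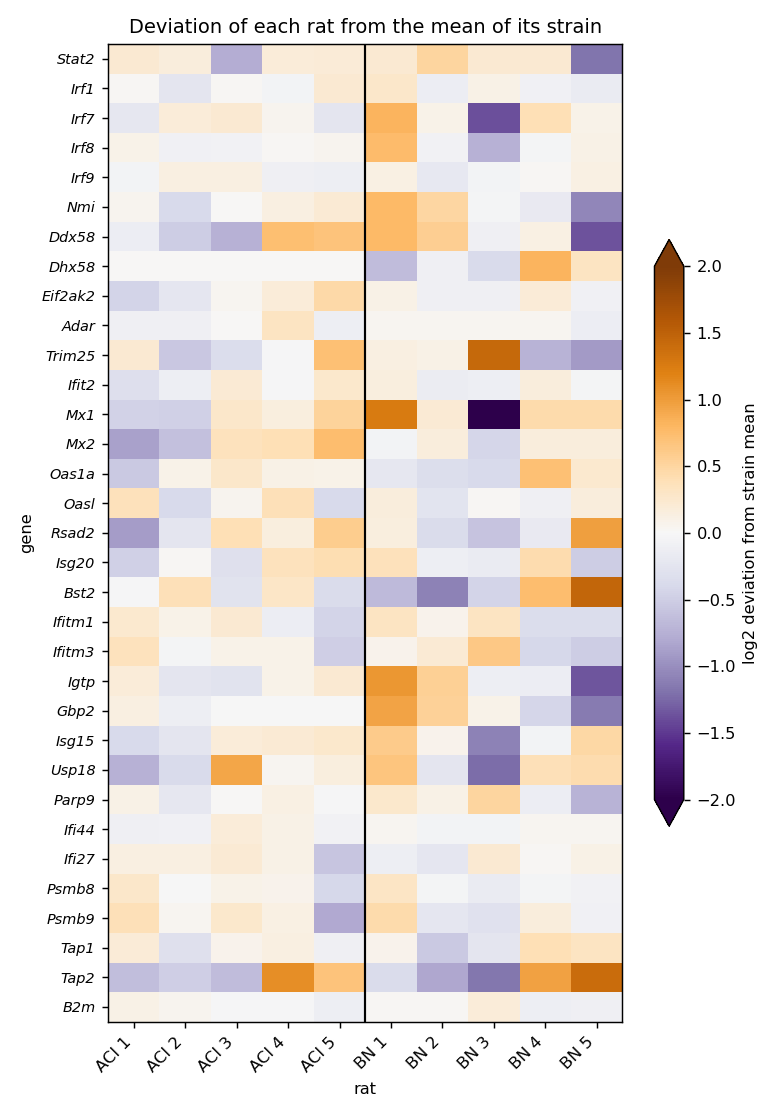
Deviation of each rat (x axis) from the mean of its strain on the log2 scale (colour, orange above and purple below) for the 33 interferon-stimulated genes with a mean of at least 4 (y axis). BN rat 3 is lowest of its strain in 11 genes, with *Mx1*, *Irf7*, *Usp18* and *Isg15* among its darkest purple cells, and BN rat 1 is highest in 12.

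Marker lists of other cell types also differed between the strains and between these rats. The mean of 4 markers of all leukocytes was 9.70 to 10.06 in ACI and 11.16 to 12.37 in BN rats, with 3 of 4 called higher in BN. BN rat 3 was the lowest of its strain on it, and BN rat 1 the highest. The mean of 6 B and plasma cell markers was 2.91 to 3.07 in ACI rats, 4.70 in BN rat 3 and 9.17 or more in the other BN rats, with 6 of 6 called, and the ACI means are under the near-background limit. The mean of 8 T cell markers was 4.75 to 5.26 in ACI rats, 5.40 in BN rat 3 and 7.43 or more in the other BN rats, with 5 of 8 called. *Cd4* (0.86) and *Cd8a* (0.10) differed toward ACI and were not called.

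Other leukocyte lists moved in part. On 8 macrophage markers ACI rats had 8.67 to 9.14 and BN rats 9.34 to 9.99, with 4 called higher in BN and BN rat 3 at the top. *C1qb* (1.198, adjusted p = 0.0502) and *C1qa* (0.11) differed toward ACI and were not called. Of 6 natural killer cell markers 0 were called (2 of them, *Ncr1* and *Nkg7*, were under 4 in all rats), and *Gzmb* differed toward ACI (0.91). Neutrophil markers had a mean of 3.02 to 4.16 in ACI and 5.11 to 8.98 in BN rats, with 2 of 3 called. Of 3 plasmacytoid dendritic cell markers 2 were called higher in BN, *Tcf4* and *Il3ra*, and *Il3ra* was under 4 in all rats. The remaining marker, *Cox6a2*, had a difference of 2.08 toward ACI and was not called.

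Lists of cells other than leukocytes differed too. Skeletal muscle markers had a mean of 7.05 to 11.95 in ACI and 3.32 to 10.76 in BN rats, with a median difference of 3.71 and 0 of 5 called. They were lowest in BN rats 3 (3.32) and 1 (3.43) and, among ACI rats, in rat 1 (7.05). Adipocyte markers had a mean of 8.92 to 10.09 in ACI and 9.82 to 10.52 in BN rats, with a median difference of -0.86 and 1 of 5 called, higher in BN. Basal and myoepithelial markers had 8.10 to 8.61 in ACI and 7.36 to 8.17 in BN rats, with 1 of 5 called, higher in ACI. The part of any of these cells in the difference of *Irf8*, *Gbp2*, *Usp18*, *Psmb8* or any other member was not tested.

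**Figure D5:**
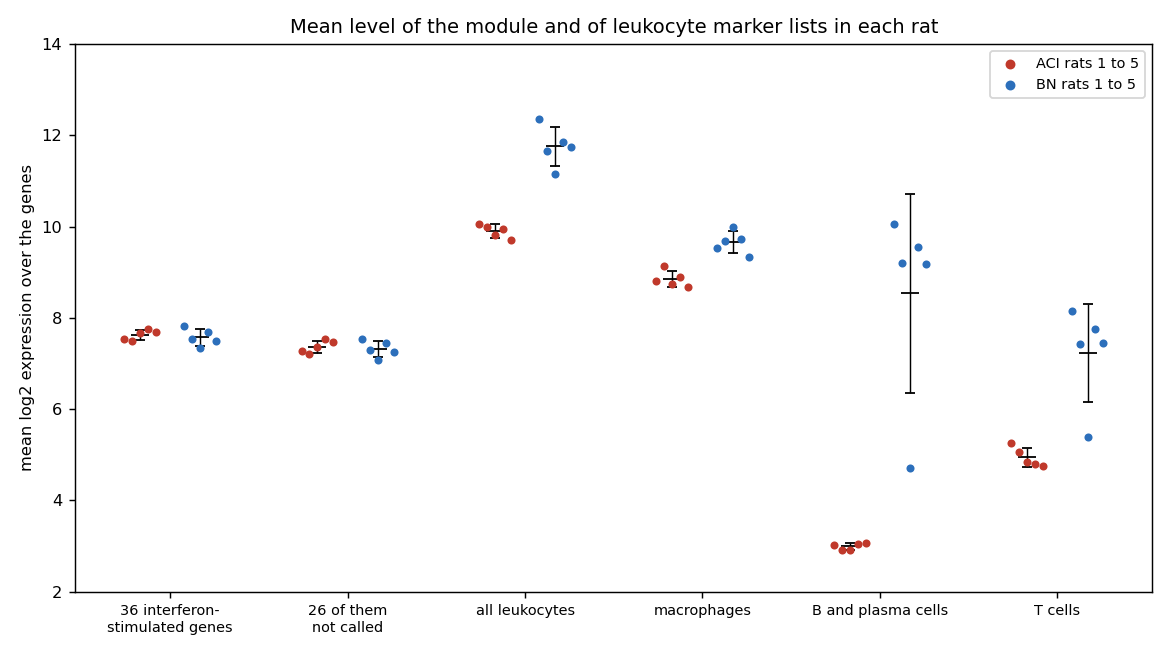
Mean log2 expression (y axis) in each ACI rat (red) and BN rat (blue) of the 36 interferon-stimulated genes, of the 26 of them that were not called, and of 4 lists of leukocyte markers (x axis), with bars for mean ± SD. The strains overlap on the interferon-stimulated genes (7.48 to 7.77 and 7.33 to 7.83) and are apart on all 4 marker lists, and BN rat 3 lies below the other BN rats on B and plasma cells (4.70) and on T cells (5.40).

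The rest of the interferon pathway was followed in a further list of 109 genes, of which 80 were measured. Of these, 6 were called higher in ACI, 18 were called higher in BN and 56 did not pass, with a median difference of -0.17. The called share was 30.0%, beside 17.4% of all genes and 24.7% of genes with a mean of at least 4. It was 7.5% toward ACI (all genes 8.29%, genes with a mean of at least 4 11.9%). Toward BN it was 22.5% (all genes 9.12%, genes with a mean of at least 4 12.8%). The 80 genes were not filtered by level, and the counts of the single lists below stand against the same background. Of 9 interferon ligands listed, 3 were measured. These were *Ifnb1*, *Ifnk* and *Ifng*, near background in all rats, at 2.60 or below. *Ifna1*, *Ifna2*, *Ifna4*, *Ifne*, *Ifnl1* and *Ifnl3* matched no probe set, so nothing is said of their levels.

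The receptor genes differed by chain. *Ifnar2*, *Il10rb*, *Ifnar1* and *Ifngr2* follow each other on chromosome 11. *Ifnar2*, the signalling chain for type I interferon, was at 6.69, 6.68, 6.75, 6.82 and 6.67 in ACI rats and at 8.34, 7.87, 7.98, 8.09 and 7.77 in BN rats. It was called higher in BN by 1.29 on the log2 scale (difference -1.29, SE 0.0998, adjusted p = 0.000146). *Ifngr2*, the accessory chain for interferon gamma, was at 9.84, 9.74, 9.54, 9.77 and 9.66 in ACI rats and at 8.32, 8.37, 8.41, 8.35 and 8.27 in BN rats.

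In neither gene did the strains overlap, and the difference of *Ifngr2* was in the opposite direction, at 1.37 (SE 0.0552). *Il10rb*, a chain shared by the receptors of interferon lambda and interleukin 10, was called higher in BN (-0.92, adjusted p = 0.00537). *Ifnar1* had -0.68 with no overlap and was not called (adjusted p = 0.0918). *Ifngr1*, the ligand-binding chain for interferon gamma, had 0.40 (adjusted p = 0.0671), and *Ifnlr1* had 0.28. Of the kinases, *Jak1* had -0.88 (adjusted p = 0.0725), *Jak2* -0.13 and *Tyk2* -0.01, and 0 were called.

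Among genes of sensing upstream of interferon, 2 of 8 were called higher in BN and 1 in ACI. *Tlr7*, the endosomal receptor for single-stranded RNA, was at 4.39, 4.60, 4.60, 5.05 and 4.64 in ACI rats and at 7.02, 6.97, 6.17, 6.85 and 6.24 in BN rats (difference -1.99, SE 0.208, adjusted p = 0.000643). All BN rats were above all ACI rats. *Sting1*, the adaptor of cytosolic DNA sensing, had -1.24 (adjusted p = 0.0187), and *Mavs*, the mitochondrial adaptor of RIG-I and MDA5, had 0.74 (adjusted p = 0.0223). *Irf5*, which acts below the Toll-like receptors, was called higher in BN (-1.32, adjusted p = 0.0205), and of 7 negative regulators only the phosphatase gene *Ptpn6* was called, also toward BN (-0.98, adjusted p = 0.0334).

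Of 38 further interferon-induced genes, 3 were called higher in ACI, 10 in BN and 25 did not pass, with a median of -0.20. The 3 with the largest differences toward BN were *Cxcl11*, a chemokine for T cells, at -2.60 (adjusted p = 0.0104), *Gbp4*, a guanylate-binding protein and neighbour of *Gbp2*, at -1.76 (adjusted p = 0.0198), and *Sp110*, a nuclear body protein, at -1.52 (adjusted p = 0.00338). The 3 toward ACI were *Dtx3l*, the ubiquitin ligase partner of PARP9 and its neighbour in the genome, at 0.98 (adjusted p = 0.0498), the caspase gene *Casp4* at 0.95 (adjusted p = 0.000796) and *Pnpt1*, a ribonuclease of mitochondria, at 0.50 (adjusted p = 0.0460). Of 10 further class I genes, *Tapbp*, which encodes tapasin, the link between the transporter and the class I molecule, was called higher in ACI (1.32, adjusted p = 0.0159). *RT1-S3*, a class I gene, at -0.89 (adjusted p = 0.0340), and *Psme1*, a proteasome activator subunit, at -0.50 (adjusted p = 0.0498), were called higher in BN. The class I genes of the rat are a family of near-identical copies, and the target of a probe set in it is uncertain.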

How the data were processed

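Per the submitters' processing notes, the authors made log2 expression values per probe set with GCRMA 2.18.1, which corrects background by probe sequence and normalizes arrays to each other; the deposited values, with 2 decimals, were used unchanged. The sources used here do not say which arrays entered 1 normalization. GCRMA draws low values to a common floor, so a difference near background is understated. Of 31099 probe sets, 57 controls were left out; 20826 of the others carry 1 symbol (20758 matched to RefSeq by gene ID), 436 several and 9780 none. The 5 ACI arrays were set against the 5 BN arrays with limma 3.58.1 (R 4.3.3), with Benjamini-Hochberg adjustment over 31042 probe sets and calls at an adjusted p of 0.05, and each member also by a two-sided exact permutation test over 252 arrangements of the rats (smallest p 0.0079). The number of arrays limits the precision. Levels are those of probe sets, and whether the sequence under a probe differs between the strains was not tested. The members and all lists were chosen with earlier results of these data known. The fit was tested on simulated data.

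By the rule for named genes, every member is named, and of the other pathway genes the ligands, the receptors and the called genes up to the 3 largest differences in each direction per list; *Jak1*, *Jak2*, *Tyk2*, *Slfn3*, *Cxcl10* and *Samhd1* lie outside it. Sequences were to be shown for members without overlap and for *Mx1* with *Mx2*; those of *Irf9*, *Ifi27*, *Bst2*, *Tap2* and *B2m* were added after their values were seen. Alternatives were the replicate number or the ID series as a block, each series alone, other filters, floors, scalings, variance models and probe set rules, the methods' t-test (Student's, the general test of the study), and leaving out rats. The test of a difference between ID series was added after seeing the data.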

Additional observations from a re-analysis of the deposited data

Results flagged for a closer look

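In 71 groups of 5 rats (each member in each strain), 14 had 1 rat whose gap to the nearest other rat was over 0.71 of the range of the group, where chance flags about 1 in 20 groups. The groups share rats and some span few distinct values, so they are not independent. BN rat 3 lay low in *Mx1* (5.46) and in *Ifit3* (3.36). ACI rat 3 lay low in *Stat2* (5.79) and high in *Ifit3* (4.61). BN rat 5 lay low in *Stat2* (5.72) and in *Adar* (4.96), where ACI rat 4 lay high (5.55). ACI rat 5 lay low in *Ifi27* (12.04) and *Psmb9* (9.64), ACI rat 1 lay low in *Oas1a* (5.1) and BN rat 1 lay high in *Psmb8* (10.82). In genes near background the flags concern gaps of a few hundredths, with *Ifih1* at 2.35 in ACI rat 4, and *Ifit1* at 2.3 in ACI rat 3 and 2.23 in BN rat 1. The strain difference was compared between the rats with S and with H in their ID for each of the 36 members, and 0 passed at an adjusted p of 0.05, with 856 of 31042 probe sets passing.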

How the results depend on the processing

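Of the 10 calls, those of *Irf8*, *Mx2*, *Isg20*, *Ifitm1*, *Usp18*, *Psmb8* and *Tap1* remained in all 10 fits that left out 1 rat, and those of *Irf9*, *Ifi27* and *Gbp2* in 5, 4 and 3. Leaving out 1 rat gave 3 to 5 members called higher in ACI, 4 to 6 in BN, a median difference of -0.05 to 0.01 and 13 to 28 other pathway genes called, with 15 without ACI rat 2 and 13 without ACI rat 3 in place of 24. With the replicate number as a block 3 members were called toward BN (4 toward ACI) and 8 other pathway genes; *Gbp2*, *Ifi27*, *Irf9* and *Usp18* were lost and *Tap2* was gained. Same-numbered rats of the strains deviated from their strain means with correlations of 0.107, -0.127, -0.099, 0.226 and -0.255. They share an ID series as well as a number, and whether they share anything further was not tested. Within ID series S (3 rats a strain) 2 members were called toward BN and 6 toward ACI; within series H (2 rats a strain) 1 was called toward BN (*Usp18*), 0 toward ACI and 0 other pathway genes, where only 100 of all probe sets were called. Averaging all probe sets of each gene gave 7 calls toward ACI, with *Ifit2*, *Igtp* and *Trim25* gained. Leaving out probe sets averaging under 4 gained *Oas1a* (adjusted p = 0.0385), *Tap2* (0.0359) and *Trim25*, and *Irf9* was lost. Quantile normalization and centring of the arrays each gained *Trim25* and lost *Irf9*. Trended and robust variance lost *Irf9* and gained no member. Without BN rats 4 and 5 there were 6 and 8 calls. No called member changed direction under any alternative run. Where the strains did not overlap, leaving out rats could not change it. The median difference of the members stayed between -0.06 and 0.10 over all alternatives.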

Other observations

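A few further genes of the pathway list, chosen after their values were seen, spread widely between rats of the same strain. *Slfn3*, a Schlafen family gene, was matched to the current symbol *Slfn4*, and the brighter of its 2 probe sets is given. It was at 3.38, 4.20, 5.55, 5.91 and 6.53 in ACI rats and at 4.60, 4.05, 5.69, 5.87 and 5.64 in BN rats. In both strains rats 1 and 2 were thus below rats 3 to 5 (difference -0.06, adjusted p = 1). *Samhd1*, which encodes an enzyme that depletes nucleotides in myeloid cells, was under 4 in all ACI rats and at 6.49, 4.89, 3.76, 6.28 and 5.41 in BN rats, with BN rat 3 again within the ACI range (difference -1.73, adjusted p = 0.0576). *Cxcl10*, a chemokine whose gene lies next to *Cxcl11*, had a positive difference of 0.81 (adjusted p = 0.254) beside the -2.60 of *Cxcl11*.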
